A study of Caenorhabditis elegans with 2 samples.

Results

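C-type lectin genes of *Caenorhabditis elegans* (clec genes) are described here in heat-stressed young adults with and without the p38 kinase gene pmk-1. Members were all genes of the deposited tables whose symbol starts with clec-, with the reads of a gene's coding sequence IDs summed. This gave 67 of 8730 genes with at least 1 read in either library. The annotation holds 240 protein-coding clec genes, and the other 173 were listed in neither library. The libraries came from whole worms of strain KU25, the pmk-1(km25) deletion mutant, and of N2 Bristol, the wild type. Both were raised at 20 °C with OP50 bacteria as food and kept at 35 °C for 5 h, so neither was unheated. Each genotype has 1 library, with 5.23 M uniquely mapped reads in pmk-1(km25) and 5.78 M in the wild type. There is thus no replicate error and no test of genotype, and how many worms were pooled is not given in the sources used here.

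C-type lectins share a protein fold first known for binding sugars with the help of calcium, although many worm members may not bind sugar. The family is large and many of its proteins are predicted to be secreted. A number of clec genes are expressed in the intestine and respond to bacterial infection, and some of those responses depend on the PMK-1 pathway, which is a central branch of worm innate immunity. No clec sequence is printed, and functions are given only where the gene is known from infection studies.

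Values are reads, and ratios divide the pmk-1(km25) CPM (reads as a share of all listed reads) by that of the wild type, with an exact 95% interval (conditional binomial, Clopper-Pearson), which covers counting error only. A gene was counted as higher or lower when the ratio was at least 2 in that direction and the interval excluded 1, with a count of 0 set to 3 reads for the ratio. Log2 ratios use a prior of 0.5 reads in each library. pmk-1 itself was listed in neither library, so the deletion could not be checked. Of 12 non-lectin genes that the literature uses as PMK-1 targets, 10 had reads. All 10 had a log2 ratio below 0 and 7 were at least 2-fold lower (1.88% of all genes were), with 36 reads together in pmk-1(km25) and 802 in the wild type. C17H12.8 alone had 1 of these reads in pmk-1(km25) and 516 in the wild type. Only 3 of the 10 had at least 50 reads over both libraries.

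The clec genes were more often higher than lower in the pmk-1(km25) library. Of the 67 members, 23 (34.3%) were at least 2-fold higher, against 18.2% of all genes, and 2 (2.99%) were at least 2-fold lower, against 1.88% of all genes. Their median log2 ratio was 0.88, from -4.10 to 6.30, and the median of all genes was 0.01. With genes that had 0 reads in a library set to their bound, the medians were 0.63 for the members and 0.00 for all genes. With no fold required, the interval lay above 1 for 32 members (47.8%, against 26.3% of all genes) and below 1 for 8 (11.9%, against 33.0% of all genes). At a threshold of 1.5-fold, 31 members were higher (23.2% of all genes) and 5 lower (17.5% of all genes). These shares describe 2 libraries and were not tested.

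**Figure D1:**
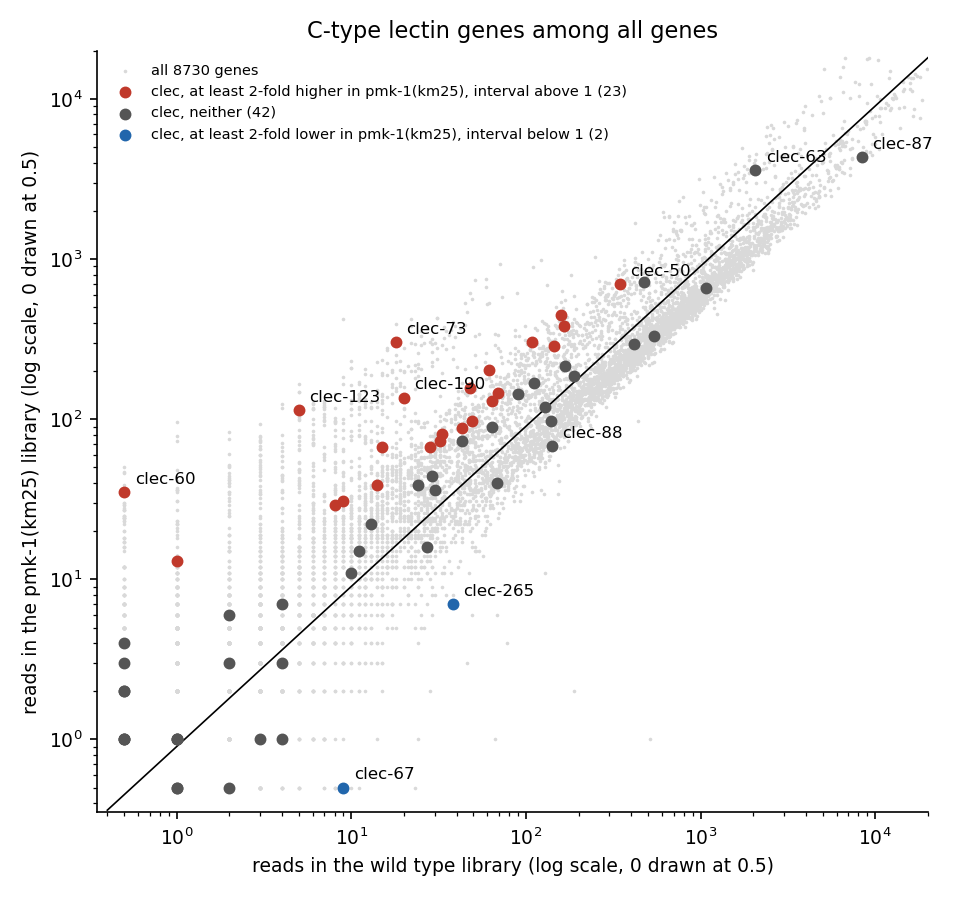
Reads per gene in the pmk-1(km25) library (vertical, log scale) and in the wild type library (horizontal, log scale), with all 8730 genes in grey and the 67 clec genes in colour; the line marks equal CPM. The 23 members called higher lie above the line over most of the range of reads, and the 2 called lower are clec-265 and clec-67.

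Markers of most body tissues were also higher in the pmk-1(km25) library. The 34 listed markers of intestine, body wall muscle, pharynx, neurons and hypodermis, out of 42 chosen, had a median log2 ratio of 1.06, from -1.08 to 3.08. Together they held 1.49% of reads in pmk-1(km25) and 0.685% in the wild type. The hypodermis list went the other way by its median, -0.30, with 3 of its 5 listed genes below 0. Its collagen gene col-19 was higher and held 26779 of the 77937 body-marker reads in pmk-1(km25) and 13826 of 39624 in the wild type. Of the chosen body markers, ges-1, unc-54, myo-3, myo-5, pqn-79, rab-3, tbb-4 and bli-1 were listed in neither library. The intestine list alone, 10 listed genes of 11, had a median of 0.89, from -0.52 for the transcription factor gene elt-2 to 3.08 for the ferritin gene ftn-1. Setting the body markers' median to 0, an alternative added after seeing the data, left 6 members higher by the 2-fold rule and 11 lower by it, and turned the family median to -0.18. The share of all genes called was then 5.86% higher and 45.0% lower. In whole-worm RNA, fewer cells of a type and less RNA per cell cannot be told apart, and the part of the tissue markers in the clec values was not tested.

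Germline markers lay on both sides of 0. The 42 sperm genes with reads (msp, ssp and named spe and gsp genes) all had log2 ratios above 0, from 1.21 to 5.98 with a median of 3.31, and took 0.139% of reads in pmk-1(km25) and 0.0138% in the wild type. The 10 listed oogenic germline markers, of 15 chosen, ran from -1.01 to 0.55 with a median of -0.86, and held 1.03% of reads in pmk-1(km25) and 1.55% in the wild type. Among these, oma-1, egg-2, cbd-1, perm-4 and glp-1 were listed in neither library. Of 8 male markers 4 had reads, 71 together in pmk-1(km25) and 35 in the wild type. The part of the sperm and oogenic germline in the clec values was not tested.

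**Figure D2:**
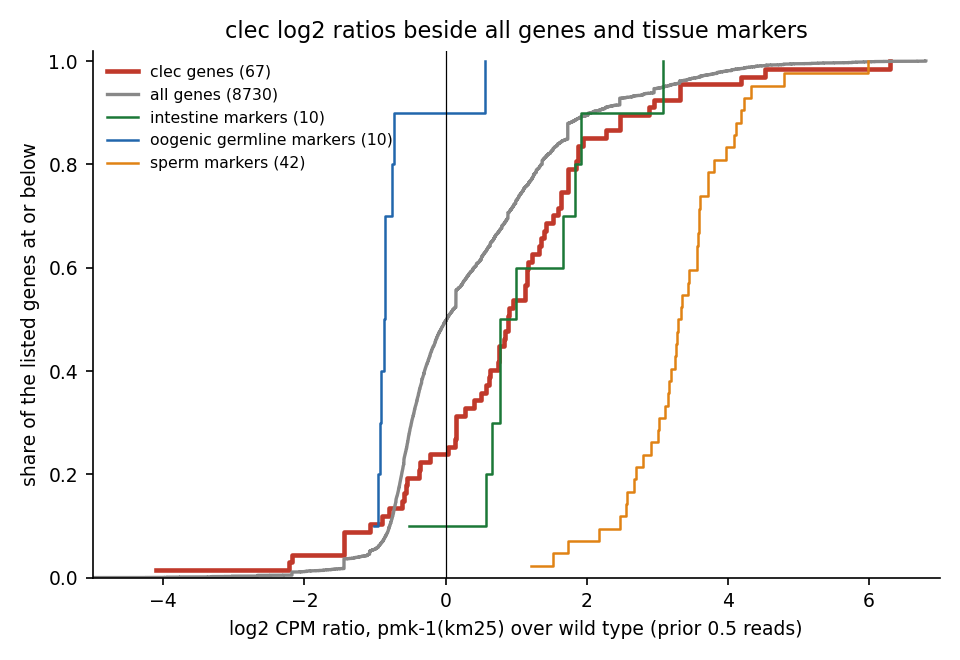
Cumulative share of listed genes (vertical) by log2 CPM ratio of pmk-1(km25) over wild type (horizontal) for the clec genes, all genes, and markers of intestine, oogenic germline and sperm. By its median of 0.88, the clec curve lies right of all genes (0.01) and close to the intestine markers (0.89), between the oogenic (-0.86) and sperm (3.31) markers. Its ends, -4.10 and 6.30, lie beyond the lowest oogenic marker (-1.01) and the highest sperm marker (5.98), but both rest on the prior reads. The ends are clec-67 (0 reads in pmk-1(km25), 9 in the wild type) and clec-60 (35 and 0 in the same order). Their place relative to the markers is therefore no measure of a difference.

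The pooled reads of the family were set largely by a single gene. All 67 members together had 15289 reads in pmk-1(km25) and 15714 in the wild type, which is 0.292% and 0.272% of each library and a ratio of 1.08 (1.05 to 1.1). The direction turned to 0.967 with the deposited RPKM and to 0.517 with scaling on body-tissue markers. clec-87 (C25A1.8, chromosome I) alone had 4313 reads in pmk-1(km25) and 8358 in the wild type. That was 28.2% of the family's reads in pmk-1(km25) and 53.2% in the wild type, and the gene was 1.75-fold lower in pmk-1(km25) (1.69 to 1.82). Without it the pooled ratio of the other 66 members was 1.65 (1.6 to 1.7). Leaving out clec-63 too gave 1.54 (1.48 to 1.59).

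Per length, the levels of the family spanned several orders of magnitude. In deposited RPKM (reads scaled to listed length and library total), clec-87 stood highest in both libraries, at 1175 in pmk-1(km25) and 2058 in the wild type. clec-63 (F35C5.6, chromosome II), known from infection studies, came next at 558 RPKM in pmk-1(km25) and 288 in the wild type. clec-91 (ZK858.3, chromosome I) was the third in both, at 187 RPKM in pmk-1(km25) and 273 in the wild type. The order below these differed: clec-50 (138 in pmk-1(km25), 61.9 in the wild type) was the fourth in pmk-1(km25), and clec-47 (132 in pmk-1(km25), 195 in the wild type) was the fourth in the wild type. The members' median was 11 RPKM in pmk-1(km25) and 3.94 in the wild type, against 18.5 and 12.2 for all genes in the same order. The 5 members with the most reads held 65.4% of the family's reads in pmk-1(km25) and 78.3% in the wild type.

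**Figure D3:**
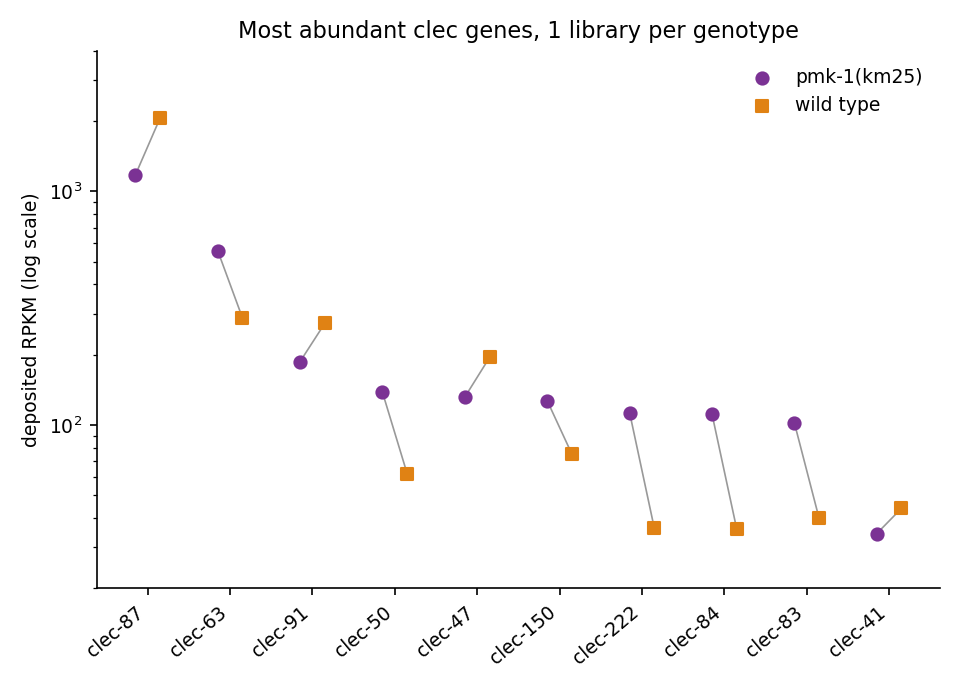
Deposited RPKM (log scale) of the 10 clec genes among the 8 highest of either library, with pmk-1(km25) on the left of each pair and the wild type on the right. clec-87, clec-91, clec-47 and clec-41 are lower in pmk-1(km25), and the other 6 are higher.

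Of the 67 members, 38 had at least 50 reads over both libraries together. Another 29 had fewer, and 19 of those had fewer than 10. The level of 50 was reached within a library in both for 22 members, in pmk-1(km25) alone for 11 and in the wild type alone for 1, so counts over members at that level are no support for a direction. By reads over both libraries, the 16 members with at least 50 and under 200 reads had a median log2 ratio of 1.16, against 0.47 for all genes at that level. The 17 members with at least 200 and under 1000 reads had 0.82, against -0.36 for all such genes, and the 5 with 1000 or more had 0.76, against -0.47. Below 50 reads the medians were 0.88 for 10 members with 10 to 49 reads (all genes 0.77) and 0.15 for 19 members with 1 to 9 reads (all genes 0.88).

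**Figure D4:**
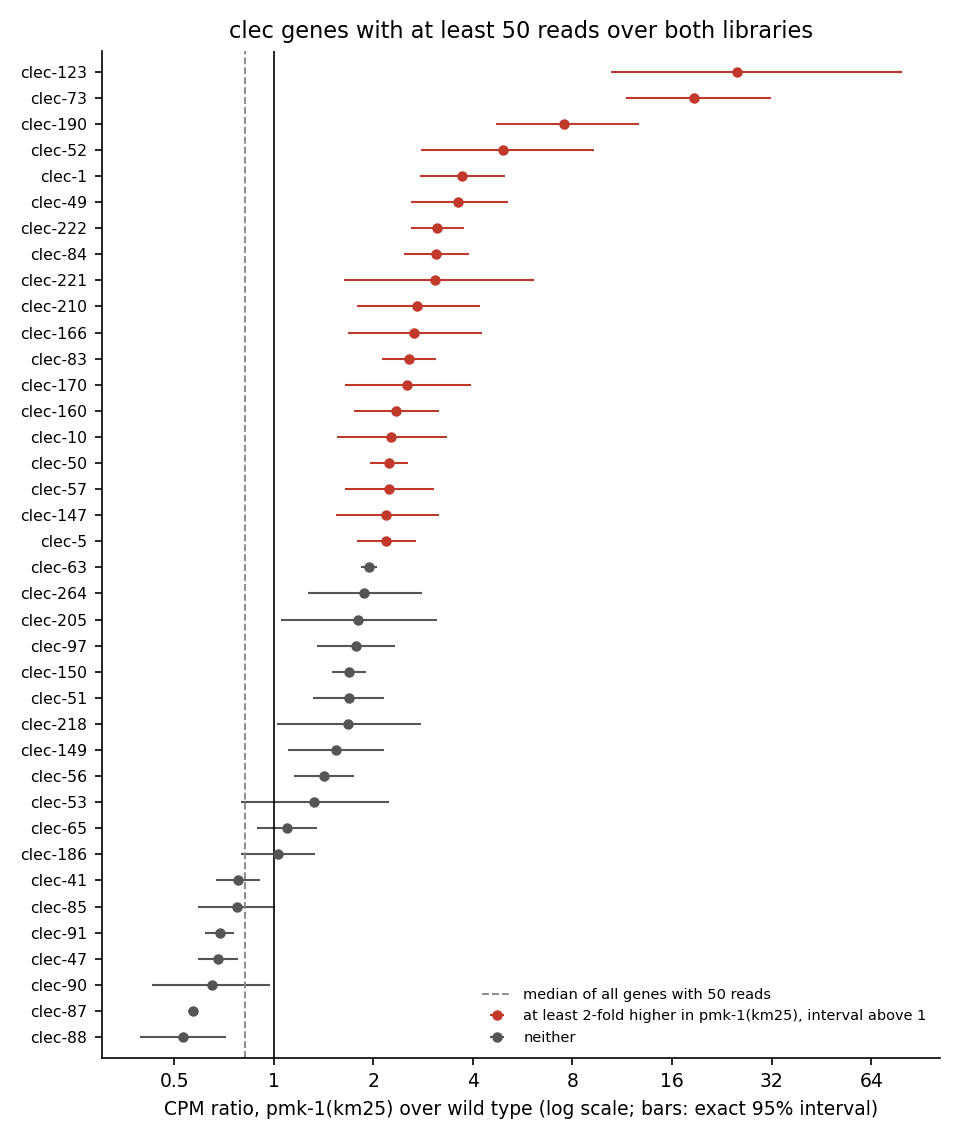
CPM ratio of pmk-1(km25) over wild type (log scale) for the 38 clec genes with at least 50 reads over both libraries; points are ratios, bars exact 95% intervals and the dashed line the median of all genes at that level. clec-123, clec-73 and clec-190 stand highest, and 7 members lie below 1, from clec-41 to clec-88.

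Clec genes named in infection studies were measured for 13 of the 19 on a list of such genes. The others, clec-4, clec-39, clec-42, clec-70, clec-71 and clec-86, were listed in neither library. The 13 had a median log2 ratio of 1.35. Of them, 4 were at least 2-fold higher (18.2% of all genes were) and 1 at least 2-fold lower (1.88% of all genes). The other 54 members had a median of 0.86. The 1.35 is the value of clec-83, and clec-61, clec-17 and clec-82 lie above it at 2.95, 2.47 and 1.73. These had 3, 2 and 1 reads in pmk-1(km25) and 0 in the wild type, so their values rest on the prior of 0.5 reads. The 1.35 is therefore no measure of a difference from the other members. clec-60 (ZK666.6, chromosome II), which is induced by Gram-positive pathogens, had 35 reads in pmk-1(km25) and was not listed in the wild type, taken as 0 reads. With 3 reads in place of 0 in the wild type it was 12.9-fold higher, and the exact interval began at 9.95-fold. Those reads covered 76.7% of its listed sequence. clec-61 (ZK666.7), also on the list, had 3 reads in pmk-1(km25) and was likewise unlisted in the wild type, with an interval that reached below 1.

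Besides clec-60, clec-52, clec-49 and clec-83 of the list were at least 2-fold higher. clec-52 (B0218.8, chromosome IV) had 67 reads in pmk-1(km25) and 15 in the wild type and was 4.94-fold higher (2.79 to 9.31). clec-49 (W04E12.6, chromosome V), studied with *Serratia marcescens*, had 157 reads in pmk-1(km25) and 48 in the wild type and was 3.62-fold higher (2.6 to 5.11). clec-83 (Y54G2A.14, chromosome IV) had 382 reads in pmk-1(km25) and 165 in the wild type and was 2.56-fold higher (2.13 to 3.09). clec-63, the most abundant gene of the list, stayed under the 2-fold threshold at 3607 reads in pmk-1(km25) and 2058 in the wild type, a ratio of 1.94 (1.84 to 2.05).

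The other genes of the list were lower or had intervals that included 1. clec-67 and clec-85 are also known from work on PMK-1. clec-67 (F56D6.2, chromosome IV) was unlisted in pmk-1(km25) and had 9 reads in the wild type. With 3 reads in place of 0 it was 2.71-fold lower, and the exact interval began at 1.79-fold, short of 2-fold. clec-85 (Y54G2A.6, chromosome IV) had 97 reads in pmk-1(km25) and 139 in the wild type, a ratio of 0.772 (0.589 to 1.01), so its interval reached 1. clec-41 (B0365.6, chromosome V), linked to *Bacillus thuringiensis* infection, had 294 reads in pmk-1(km25) and 417 in the wild type and was 1.28-fold lower (1.1 to 1.49). clec-65 (185 reads in pmk-1(km25), 187 in the wild type) and clec-66 (16 and 27 in the same order) had intervals that included 1. clec-17 (2 reads) and clec-82 (1 read) were seen in pmk-1(km25) alone, at counts too low to show a difference.

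Apart from clec-60, the largest ratios that passed the rule belonged to members off that list, whose functions are not described here. clec-123 (Y25C1A.1, chromosome II) had 114 reads in pmk-1(km25) and 5 in the wild type and was 25.2-fold higher (10.5 to 79.1). clec-73 (Y46C8AL.1, chromosome IV) had 304 reads in pmk-1(km25) and 18 in the wild type, 18.7-fold higher (11.6 to 31.9). For both, reads covered most of the listed sequence in pmk-1(km25) (91.6% for clec-123 and 96.9% for clec-73) and a smaller part in the wild type (14.1% and 35.9% in the same order).

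clec-117 (B0432.12) had 13 reads in pmk-1(km25) and 1 in the wild type, and its ratio of 14.4 (2.16 to 611) is correspondingly loose. clec-190 (M199.4, chromosome IV) had 136 reads in pmk-1(km25) and 20 in the wild type and was 7.52-fold higher (4.68 to 12.7). With clec-60, clec-52 and clec-227 (29 reads in pmk-1(km25), 8 in the wild type), these made 7 members at least 4-fold higher (10.4% of members), against 7.53% of all genes. Of all 23 members called higher, 17 had log2 ratios within the range of the sperm markers (1.21 to 5.98), as did 25 of all 67 members. In the range of the intestine markers (-0.52 to 3.08) lay 19 of the 23 and 49 of the 67. A call needs a ratio of at least 2, so these counts are no measure of likeness to either list. clec-60 lay above both ranges at 6.30, a value that rests on the prior of 0.5 reads in the wild type. Markers with few reads set the ends of both ranges. In pmk-1(km25) and the wild type, spe-9 (1.21) had 11 and 5 reads and ssp-19 (5.98) 28 and 0. In the same order elt-2 (-0.52) had 15 and 24, and ftn-1 (3.08) 11 and 1. Without ftn-1 the highest intestine marker was asah-1 at 1.92, below clec-190, clec-52 and clec-227.

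The other 16 members called higher had ratios between 2.19 and 3.81. clec-1 (F25B4.9, chromosome V) had 204 reads in pmk-1(km25) and 61 in the wild type, 3.7-fold higher (2.77 to 5.01). clec-222 (C03E10.6, chromosome V) had 449 reads in pmk-1(km25) and 159 in the wild type, 3.12-fold higher (2.6 to 3.77). clec-84 (Y54G2A.33, chromosome IV) had 303 and 108 reads in the same order, 3.1-fold higher (2.48 to 3.9). These 3 genes had narrow intervals that stayed above 2.

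clec-221 (39 reads in pmk-1(km25), 14 in the wild type) was 3.08-fold higher, but with an interval of 1.64 to 6.14. clec-210 was 2.71-fold higher (1.79 to 4.2) and clec-166 2.65-fold higher (1.68 to 4.27). clec-50 (W04E12.8, chromosome V), the most abundant of the genes called higher, had 698 reads in pmk-1(km25) and 346 in the wild type and was 2.23-fold higher (1.96 to 2.55). clec-80, clec-170, clec-160, clec-10, clec-57, clec-5 and clec-147 complete the group with clec-49 and clec-83.

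A further 9 members had intervals above 1 with ratios under 2. Besides clec-63 they included clec-150 (R06B10.3, chromosome III), with 724 reads in pmk-1(km25) and 473 in the wild type and a ratio of 1.69 (1.51 to 1.9). clec-149 (1.54, 1.1 to 2.15) and clec-56 (1.42, 1.15 to 1.75) were the smallest among them. For clec-53 and clec-186 the interval included 1. clec-53 had 36 reads in pmk-1(km25) and 30 in the wild type, and clec-186 had 119 and 128 in the same order.

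The genes that were lower in pmk-1(km25) included clec-87, clec-91 and clec-47, which were 3 of the 4 members with the highest wild-type RPKM. Besides clec-41 and clec-87, 4 genes had an interval below 1 at a difference of less than 2-fold. clec-91 had 663 reads in pmk-1(km25) and 1069 in the wild type, 1.46-fold lower (1.32 to 1.61). clec-47 (T09F5.9, chromosome V) had 333 reads in pmk-1(km25) and 544 in the wild type, 1.48-fold lower (1.29 to 1.7). clec-90 (F57C9.2, chromosome I) had 40 and 68 reads in the same order, 1.54-fold lower (1.03 to 2.33). Of the 8 members with an interval below 1, 6 had log2 ratios within the range of the oogenic markers (-1.01 to 0.55). In the range of the body-tissue markers (-1.08 to 3.08) also lay 6. Of all 67 members, 17 lay in the oogenic range and 56 in the body-tissue range. These counts are therefore no measure of likeness to either list. The lower end of the body-tissue range is rol-6, with 1 read in pmk-1(km25) and 3 in the wild type. The median of all genes with at least 50 reads was -0.29.

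clec-88 (K10B2.3, chromosome II) had 68 reads in pmk-1(km25) and 141 in the wild type and was 1.87-fold lower (1.39 to 2.54). It is listed as 2 IDs. The first had 38 reads in pmk-1(km25) and 96 in the wild type, and the second 30 and 45. Reads covered 13.7% of the first in both libraries, and 17.1% of the second in pmk-1(km25) and 17.9% in the wild type, so the value rests on a small part of the sequence.

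At least 2-fold lower by the rule were clec-67, described above, and clec-265 (M02F4.7, chromosome X). Of these clec-265 passed 4-fold (0.344% of all genes were at least 4-fold lower), and it had 7 reads in pmk-1(km25) and 38 in the wild type with a 4.91-fold lower CPM (2.17 to 13). Reads covered 33.2% of it in pmk-1(km25) and 78.8% in the wild type. The other member on chromosome X, clec-266, had a single read in the wild type. All genes of chromosome X had a median log2 ratio of 0.69.

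Presence in 1 library said little at these depths. 8 members were listed in pmk-1(km25) alone, with 1 to 35 reads, and after clec-60 the next had 4 (clec-62). 4 members were listed in the wild type alone, of which clec-67 had 9 reads, clec-207 had 2, and clec-224 and clec-266 had 1 each. The limit of 3 reads for a count of 0 is 0.574 CPM in pmk-1(km25) and 0.519 CPM in the wild type. An unlisted gene was taken as 0 reads, which was not tested, and unc-54, an abundant muscle myosin gene, was listed in neither library.

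By chromosome, the members' medians lay above those of all genes on each but X. The 9 members on chromosome I held no call and had a median log2 ratio of 0.40 (all genes there, -0.25), with 3 of them below 0 and those 3 being clec-87, clec-90 and clec-91. On chromosome II the 14 members had a median of 1.15 (all genes -0.04), on III the 4 members 0.94 (all genes -0.30), on IV the 19 members 1.32 (all genes -0.03) and on V the 19 members 0.83 (all genes 0.19). The 23 members called higher were 8 of the 19 on IV, 8 of the 19 on V, 5 of the 14 on II and 2 of the 4 on III. Of all genes, 19.1% were called higher on IV, 21.5% on V and 12.5% on III. The share of all genes on II lay between those on III and IV. On I and X, where no member was called higher, 16.6% and 24.2% of all genes were. These shares were not tested.

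Many clec genes stand side by side in the genome. In the WBcel235 annotation, used for names and neighbours only because the build of the files is not given in the sources used here, 125 of the 240 clec genes stand in 41 runs with no other protein-coding gene between them, the longest of 13. Of the members, 29 belong to such runs, and 8 runs hold more than 1 of them. Neighbours varied in the size of their ratios. In the run on chromosome II that holds clec-62 to clec-66, clec-63 had a log2 ratio of 0.95, clec-65 of 0.13 and clec-66 of -0.59, the last 2 with overlapping intervals that included 1. On chromosome IV, clec-73 was 18.7-fold higher, and beside it clec-72 had 11 reads in pmk-1(km25) and 10 in the wild type, a ratio of 1.22 (0.469 to 3.2), with intervals that did not overlap.

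Other neighbours were alike in direction. clec-83 and clec-84 were 2.56-fold and 3.1-fold higher with overlapping intervals. clec-49 and clec-50, of equal listed length (966 bases), were 3.62-fold and 2.23-fold higher, with intervals that did not overlap. On chromosome V, clec-57 (2.23-fold, 1.64 to 3.06) and clec-227 (4.01-fold, 1.79 to 10.1) were both at least 2-fold higher. clec-56, next to clec-227, was 1.42-fold higher (1.15 to 1.75), with an interval that did not overlap that of clec-227. The remaining pairs, clec-186 with clec-187 (22 reads in pmk-1(km25), 13 in the wild type) and clec-225 (3 and 4 in the same order) with clec-41, had overlapping intervals. Because only uniquely mapped reads were counted, values of similar neighbours may lack shared reads.

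**Figure D5:**
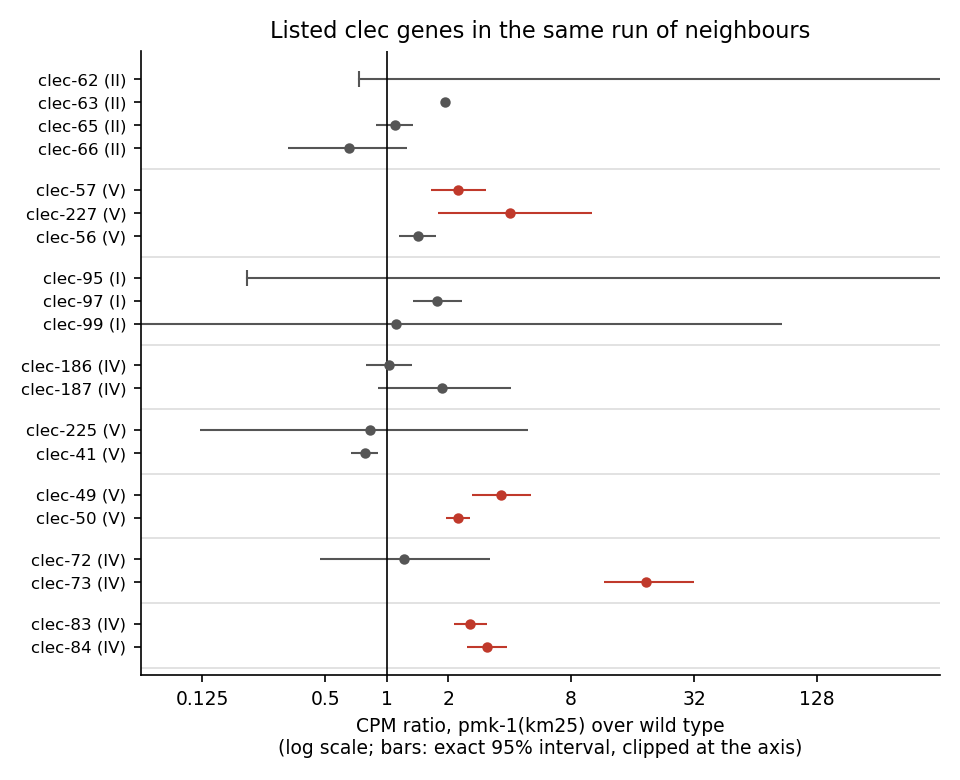
CPM ratio of pmk-1(km25) over wild type (log scale, bars exact 95% intervals clipped at the axis) for the clec genes that share a run of neighbours, with the chromosome in brackets; a tick with no point marks the lower end for a gene with 0 wild-type reads. clec-72 and clec-73 lie far apart, while clec-83 and clec-84 lie together.

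The listed coding lengths of the members ran from 483 to 2631 bases with a median of 966, close to the 930 of all genes. For the 38 members with at least 50 reads, the median share of the sequence covered by reads was 93.2% in pmk-1(km25) and 91.1% in the wild type. Another protein-coding gene overlaps 17 of the 67 members in the annotation, and no strand-specific protocol is stated in the labels, so such reads cannot be assigned with certainty. Of the members called higher, clec-83, clec-84, clec-210, clec-221 and clec-147 are among them. Of the members with an interval below 1, clec-87, clec-88, clec-90 and clec-91 are among them too. Overlap was taken over whole gene spans, introns included. The genes overlapping clec-83, clec-84, clec-210, clec-90 and clec-91 were listed in neither library. The gene overlapping clec-221, F17C11.4, had 107 reads in pmk-1(km25) and 49 in the wild type. C04H5.1, which overlaps clec-147, had 50 reads in pmk-1(km25) and 70 in the wild type. clec-87 overlaps iars-2 on the other strand, which had 741 reads in pmk-1(km25) and 1219 in the wild type. clec-88 overlaps ctsa-4.1 on the same strand, which had 43 reads in pmk-1(km25) and 37 in the wild type. Without the 17, an alternative added after seeing the data, 18 of 50 members were higher (18.2% of all genes were) and 2 lower (1.88% of all genes). The pooled ratio was then 1.83 (1.77 to 1.9), but clec-87 is among the 17, and leaving out clec-87 alone gave 1.65.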

How the data were processed

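mRNA of whole worms was sequenced in 1 library per genotype, per the labels' protocols. The deposited counts are uniquely mapped reads per coding sequence ID, not normalized, per the file headers. The authors also deposited RPKM and the percent of each listed length that reads covered. RPKM recomputed from counts differed by at most 2.77e-08 (relative). The aligner and the genome build: not given in the sources used here. Of 9430 IDs, 9383 matched WBcel235 sequence names.

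Ratios used library totals. Exact intervals were computed in Python 3.11.15 with scipy 1.17.1, and TMM factors with edgeR 4.0.16. Calls were made over all 8730 genes with no filter. The named members were the 12 highest and 12 lowest ratios at 50 reads, the 8 highest RPKM of each library, the infection list, up to 4 members per library listed there alone, and their neighbours. clec-265, clec-117 and the other members called higher that this leaves out were named after their values were seen. Members, lists and rules were chosen with earlier results of these data known. Median-of-ratios scaling, other filters, thresholds and priors were tried. No protein or promoter sequence was used.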

Additional observations from a re-analysis of the deposited data

How the results depend on the processing

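No paired analysis was possible because each genotype has 1 library. The count of members called higher was 23 to 24 with TMM factors, median-of-ratios factors, deposited RPKM or the ID with the most reads. It was 18 to 22 with filters on reads, listing or overlaps, 31 at a 1.5-fold threshold (23.2% of all genes) and 7 at 4-fold (7.53%). With 50 reads over both libraries it was 19 of 38 members, against 18.4% of all such genes. Within 1 library only, 11 members reached 50 reads in pmk-1(km25) and 1 in the wild type. The 50-read filters are therefore no support for a direction. When scaled on body-tissue markers, the count called higher was 6 (5.86% of all genes). The count called lower was 2, and was 0 with either 50-read filter, 1 for members listed in both libraries, 3 with the ID with the most reads, 5 at 1.5-fold, 1 at 4-fold and 11 with body-tissue scaling. The median log2 ratio of 0.88 became 1.04 with 50 reads over both libraries, where all genes had -0.29. It was 1.13 with 50 reads in at least 1 library and 0.76 with a prior of 2 reads. Without overlapping members it was 1.04, and with body-tissue scaling -0.18. The pooled ratio of 1.08 became 1.15 with TMM, 1.12 with median-of-ratios, 0.967 with RPKM, where each gene is divided by its length, and 0.517 with body-tissue scaling. It was 1.83 without overlapping members, clec-87 among them, 1.65 without clec-87 alone and 1.54 without clec-87 and clec-63. Of 378 recomputed ratios of named members under the planned settings, 359 kept their direction and call, and none turned. clec-63 passed 2-fold with TMM (log2 1.05) and median-of-ratios (1.01), and clec-88 was at least 2-fold lower on its ID with the most reads (-1.18). Leaving out near-identical copies was not run for lack of protein sequences here. Depth limits the 29 members under 50 reads, of which 23 had intervals that included 1.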
